A study of Petunia x hybrida with 10 samples.

Results

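The 4 peak lists titled N6-methyladenosine (m6A) in a petunia series of 10 lists were compared between corollas kept in air and corollas treated with ethylene. They were chosen by their titles, which end in m6A, and the other 6 lists of the series carry N1-methyladenosine (m1A). Each list belongs to 1 library of RNA immunoprecipitated from corollas, the petals of the flower, of the cultivar Mitchell. Both air libraries came from 16 h in air, and both ethylene libraries from 16 h with ethylene at 2 µl/l. No genotype other than the cultivar is given for either group, and the labels leave it unsaid whether different plants supplied the replicate libraries. P-values therefore measure only the spread between these libraries, which may be technical. The protocol text of these libraries names an anti-m1A antibody, so m6A here is the title of the lists and not a checked target.

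N6-methyladenosine is a common internal mark of plant messenger RNA, placed by a methyltransferase complex and read by YTH-domain proteins, and it is known to affect the stability and processing of transcripts. Antibody profiling yields peaks, stretches of transcript with more immunoprecipitated reads than the background, and not single modified bases. Ethylene is a gaseous hormone, and in petunia flowers it is known to hasten the senescence of the corolla.

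The lists held 1605 and 1593 peaks in air and 1704 and 1451 after ethylene, 6353 peaks in all. Peaks that shared 1 bp or more were merged into 3280 regions, and no region held more than 1 peak of a library or peaks of both strands. The lists carry no read counts, so depth was unknown for each library. Each peak has a score from the authors' peak caller, which was used to order peaks within a list. Whether the scale of the score is the same in each list was not established, and scores of different lists set side by side describe the lists and show no change. Ethylene library 1 stood apart from the other libraries, with 64.5% of its peaks scored under 100 against 50.2 to 54.4% in the others. Some of the results, not all, are also given without it.

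Peak width did not separate the treatments beyond what 4 libraries can show. The median width was 286 bp in air library 1 and 273 bp in air library 2, against 261 bp in ethylene library 1 and 271 bp in ethylene library 2. Both ethylene medians lay below both air medians, by 2 bp for the nearest libraries. The mean of the medians was 279.5 ± 9.19 bp in air (SD, n = 2) and 266 ± 7.07 bp after ethylene (SD, n = 2), a difference of -13.5 bp (exact two-sided permutation p = 0.333, the smallest that 6 regroupings allow). Without ethylene library 1 the difference was -8.5 bp. With all 4 libraries and mean in place of median widths it was -23.3 bp (exact two-sided permutation p = 0.333). The nearest mean widths were almost equal, 341.6 bp in air library 2 and 341.4 bp in ethylene library 2. Peaks over 1 kb made up 4.74% and 3.83% of the air lists and 2.52% and 4.27% of the ethylene lists, so that ethylene library 2 lay between the air libraries. The widest peak was the same interval in every list, Peaxi162Scf00145 195983 to 198871 on the minus strand, 2889 bp wide. It was chosen for its width after the values were known, and scored 3100 in both air libraries, 2413 in ethylene library 1 and 3100 in ethylene library 2.

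Widths were unevenly spread over whole multiples of 3 bp. In air, 44.7% (95% exact interval 42.3 to 47.2%) and 44.6% (42.1 to 47.1%) of widths were divisible by 3. After ethylene the shares were 41.7% (39.4 to 44.1%) and 45.2% (42.6 to 47.8%). An even spread over remainders would give 33.3%, which lay below all 4 intervals. The intervals cover counting error only. The air libraries lay between the ethylene libraries, with a difference of -1.18 percentage points (exact two-sided permutation p = 1, smallest possible 0.333). Among all merged regions 43.8% of widths were divisible by 3 (1435 of 3280), and of the 10 most common widths 9 were. The most common were 99 bp, in 21 regions on 21 scaffolds, and 333 bp, in 18 regions on 18 scaffolds.

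The m1A lists of the same tissue differed from these lists in degree in both respects. Median widths of the 6 m1A lists ran from 146 to 162 bp, with a mean of 157 ± 5.67 bp (SD, n = 6), against 273 ± 10.3 bp for the m6A-titled lists (SD, n = 4). The difference of 116 bp was larger than the spread between libraries (exact two-sided permutation p = 0.00476, the smallest that 210 regroupings allow). The share of widths divisible by 3 was 44.1 ± 1.58% in the m6A-titled lists (SD, n = 4) and 36.2 ± 1.07% in the m1A lists (SD, n = 6), 7.87 percentage points apart (exact two-sided permutation p = 0.00476, the smallest possible). All 4 m6A-titled lists lay above all 6 m1A lists in both measures. The m1A shares, 34.3 to 37.3%, also lay above the 33.3% of an even spread. Only in m1A ethylene library 2 did the 95% exact interval reach below it (31.3 to 37.3%). The lists also differ in their lowest score, about 13 against about 100, and the part of this in the difference was not tested. The comparison of multiples of 3 was chosen after the widths were seen.

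**Figure D1:**
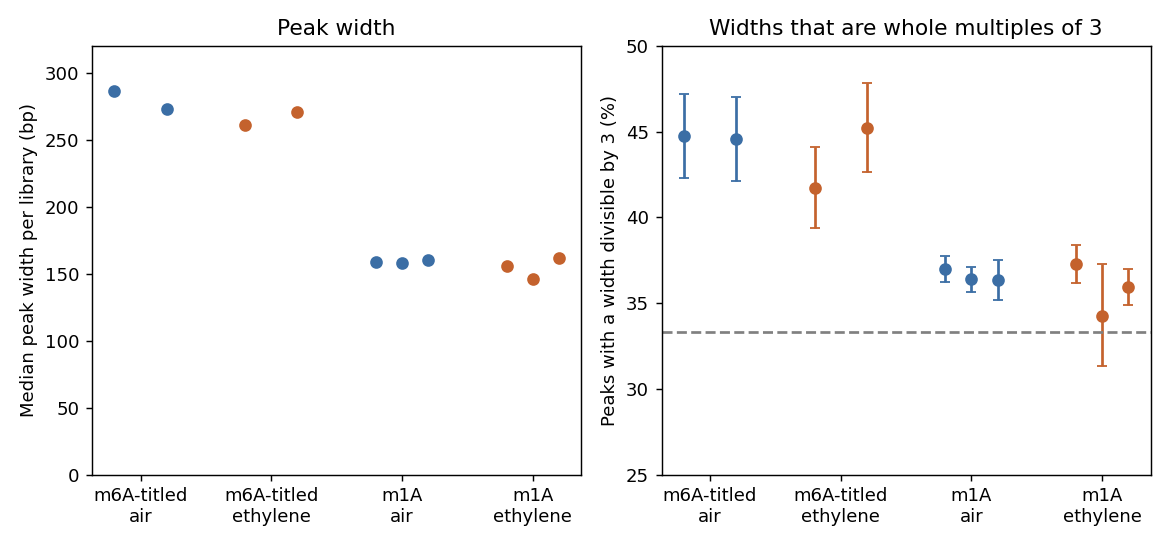
Median peak width per library in bp (left) and share of peaks with a width divisible by 3 (right, with 95% exact intervals), 1 point per library, blue for air and orange for ethylene. The m6A-titled libraries sit at 261 to 286 bp and 41.7 to 45.2%, above the m1A libraries at 146 to 162 bp and 34.3 to 37.3%, and the dashed line marks 33.3%.

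The strand column gave nearly the same picture in each list. The plus strand held 47.7% (95% exact interval 45.2 to 50.1%) and 47.1% (44.6 to 49.6%) of peaks in air, and 46.8% (44.4 to 49.2%) and 47.6% (45.0 to 50.2%) after ethylene. The minus strand was the more frequent in all 4 lists. The difference between treatments was -0.18 percentage points (exact two-sided permutation p = 0.667, smallest possible 0.333). Median widths on the plus and minus strand differed by at most 7 bp within a library, 274 and 267 bp in ethylene library 2 for example. Where peaks from a pair of lists overlapped, their strands matched in 100% of cases, in all 6 pairs. How the authors set the strand of a peak is not stated in the sources at hand. From these files, strands read from the signal cannot be told apart from strands taken from annotated features. This limits what matching strands, here and among near neighbours, and the 5′ and 3′ edges measure.

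Peaks were sparse along the scaffolds. The median gap between neighbouring peaks on the same strand was 171 kb in air library 1 and 160 kb in air library 2, against 156 kb in ethylene library 1 and 187 kb in ethylene library 2. The air values fell between the ethylene values (difference 5904 bp, exact two-sided permutation p = 1, smallest possible 0.333), and the longest list had the shortest gaps. A neighbour on the same strand within 1 kb was found for 2.93% and 3.70% of peaks in air and for 3.87% and 2.27% after ethylene. The longest list had the highest share, with 66 such peaks, and the shortest list the lowest, with 33. The difference between treatments was -0.242 percentage points (exact two-sided permutation p = 1, smallest possible 0.333). Within 5 kb the shares were 11.96% and 12.2% in air and 11.91% and 9.92% after ethylene. Both ethylene lists lay below both air lists (difference -1.18 points, exact two-sided permutation p = 0.333, the smallest possible). Air library 1 and ethylene library 1 were nearly equal there, and the shortest list, ethylene library 2, was again the lowest. Without ethylene library 2 the difference in the median gap was -9697 bp, and without ethylene library 1 it was 21506 bp.

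Near neighbours in the merged map lay on the same strand. Of 71 neighbouring regions under 500 bp apart, 71 shared a strand (100%, 95% exact interval 94.9 to 100%), as did 96 of 101 at 500 to 1000 bp (95.05%) and 103 of 106 at 1 to 2 kb (97.2%). The share was 86.3% at 2 to 5 kb, 70.1% at 5 to 10 kb and 53.3% at 10 to 50 kb (95% exact interval 48.8 to 57.8%). The closest neighbours came from different lists. The smallest gap was 4 bp, and none of the 12 same-strand pairs under 100 bp apart had a library in common, against 79 of 167 pairs (47.3%) under 1 kb apart. Within a list the smallest same-strand gap was 277 and 343 bp in air and 100 and 343 bp after ethylene. The spacing within lists thus left little room for a shared library under 100 bp.

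**Figure D2:**
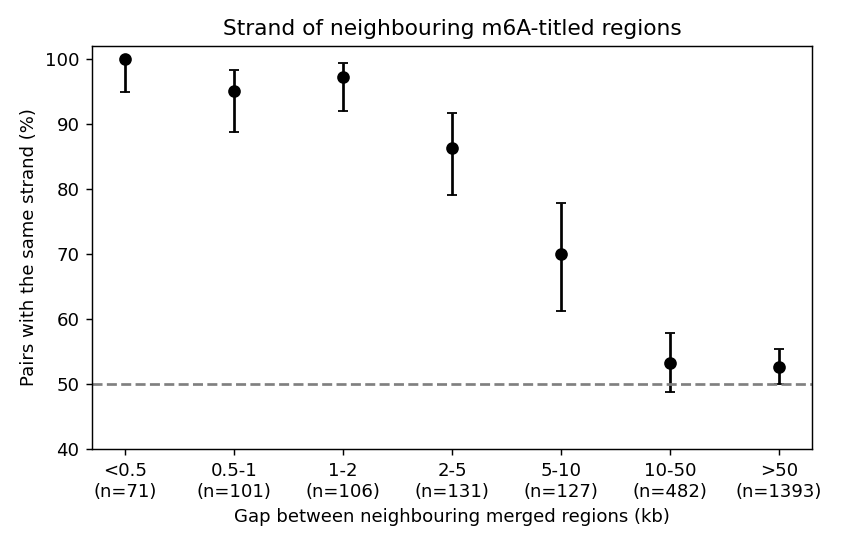
Share of neighbouring merged regions on the same strand (y axis, %) by the gap between them (x axis, kb), with the number of neighbouring pairs under each bin and 95% exact intervals. The share falls from 100% under 0.5 kb to 53.3% at 10 to 50 kb, near the dashed line at 50%.

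Peaks of different libraries often had the same edges to the base. Between 814 and 913 peaks overlapped in a pair of lists, and 73.5 to 79.4% of them had both edges identical. The air pair had 77.7%, the ethylene pair 76.8%, and the mixed pairs 73.5 to 79.4%. The mean within treatments was 77.2% and between treatments 76.7%, a difference of 0.478 percentage points (exact two-sided permutation p = 0.667 over 3 splits, smallest possible 0.333). Without ethylene library 1 the difference was -1.65 points. The 5′ edge, by the strand column, was identical in 87.8 to 90.3% of overlapping peaks and the 3′ edge in 82.0 to 88.9%. The 5′ edge was the more often identical in 5 of the 6 pairs, and in the pair of air library 2 and ethylene library 2 the shares were 88.6% and 88.9%. Neither edge was shared by 17 to 30 overlapping peaks of a pair.

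Of the 558 regions present in all 4 lists, 421 (75.4%) had identical bounds in every list. How the authors set the edges of a peak is not stated in the sources at hand. From these files, edges that follow the signal cannot be told apart from edges fixed by annotated features, which limits what widths, multiples of 3 and shared edges measure. Of these 421, 195 (46.3%) had a width divisible by 3, and of the 137 with different bounds 60 did by their merged width (43.8%). The 5 regions of identical bounds that scored highest were Peaxi162Scf00439 816094 to 816380 (minus, 287 bp), Peaxi162Scf01006 247459 to 247938 (minus, 480 bp), Peaxi162Scf00016 735552 to 735923 (minus, 372 bp), Peaxi162Scf00025 2862719 to 2863332 (minus, 614 bp) and Peaxi162Scf00027 501313 to 501702 (plus, 390 bp). Each of these 5 had a score of 3100 or more in all 4 lists. The last 3 were tied with others at 3100 and were taken by position. The scaffold sequence and its genes were not used here, so no gene is named for any region.

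Where 1 library alone departed from the bounds of the other three, it was nearly always the narrower. Ethylene library 1 departed alone in 27 regions and was narrower in 27 of them, at the 3′ edge in 19 and the 5′ edge in 8. Air library 1 departed alone in 8 regions and was narrower in 7. Air library 2 departed in 4 and was narrower in 4, and ethylene library 2 departed in 4 and was narrower in 3. No library departed at both edges of a region in this way. The scores of ethylene library 1 were also lower in these 558 regions, with a median of 209 against 297 in ethylene library 2, 341 in air library 1 and 398 in air library 2. The part of the scores in the narrower peaks was not tested.

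Few regions had widths that separated the treatments. Of the 558 regions, 22 were wider in both air libraries than in both ethylene libraries (3.94% of regions tested) and 6 were wider in both ethylene libraries (1.08%). Single regions were not tested. The widest contrast was Peaxi162Scf00750 331940 to 332137 (minus), where the peak spanned 55 and 198 bp in air and 41 and 29 bp after ethylene. The air libraries themselves differed there by more than the treatments did at their nearest values. At Peaxi162Scf00079 2315343 to 2315489 (plus) the peak spanned 139 and 147 bp in air and 82 and 84 bp after ethylene, with a score of 3100 in all 4 lists. Both treatments were tight there, and the log2 ratio of mean widths, ethylene over air, was -0.78. At Peaxi162Scf00715 71304 to 72196 (plus) the widths were 889 and 893 bp in air against 590 and 613 bp after ethylene, a log2 ratio of -0.57. Peaxi162Scf00679 118502 to 118837 (minus, 323 and 336 bp against 236 and 228 bp) and Peaxi162Scf00057 196897 to 197883 (plus, 987 and 940 bp against 800 and 602 bp) complete the 5 largest, with log2 ratios of -0.51 and -0.46.

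Among the 5 largest in the other direction, the mean score percentile within the lists was 25.7 to 65.9, against 66.5 to 97.7 for the 5 named as wider in air. At Peaxi162Scf00640 384820 to 385741 (minus) the widths were 549 and 601 bp in air against 843 and 797 bp after ethylene, a log2 ratio of 0.51, and no list scored it above 40.4. At Peaxi162Scf01044 56035 to 56253 (plus) they were 105 and 192 bp against 219 and 195 bp, where the nearest libraries differed by 3 bp. At Peaxi162Scf00042 1283122 to 1283657 (minus) they were 277 and 456 bp against 536 and 473 bp. Peaxi162Scf00437 500448 to 501664 (plus, 835 and 881 bp against 1016 and 1139 bp) and Peaxi162Scf00224 212139 to 212463 (minus, 248 and 283 bp against 318 and 325 bp) had log2 ratios of 0.33 and 0.28. Among peaks with a score of 100 or more, 278 regions were shared by every library. Of these 278, 10 were wider in both air libraries and 0 in both ethylene libraries. Leaving out ethylene library 1 gave 697 regions shared by the remaining libraries. Without ethylene library 1, 47 regions were wider in air and 32 in ethylene, a comparison of both air libraries with a single ethylene list.

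Presence over the 4 lists fell into all 15 possible patterns. Regions of 1 list numbered 607 in ethylene library 1, 422 in air library 1, 379 in air library 2 and 305 in ethylene library 2. Among regions of 2 lists, 138 were in both air lists and no ethylene list (4.21% of all regions) and 84 in both ethylene lists and no air list (2.56%). The 4 mixed pairs held 88 to 113 regions each, so that the air pair lay above and the ethylene pair below every mixed pair. Among regions of 3 lists, 139 lacked ethylene library 1, 104 lacked air library 1, 79 lacked ethylene library 2 and 68 lacked air library 2. Regions seen in at least 1 list of both treatments numbered 1345 (41.0%), those of air lists alone 939 (28.6%) and those of ethylene lists alone 996 (30.4%). Depth was unknown, so absence from a list cannot be told apart from a peak below detection. Without ethylene library 1, 216 regions were in both air lists and not in ethylene library 2, and without ethylene library 2, 277 were in both air lists and not in ethylene library 1. Without air library 1 or air library 2, the counts in both ethylene lists and not in the remaining air list were 152 and 188.

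**Figure D3:**
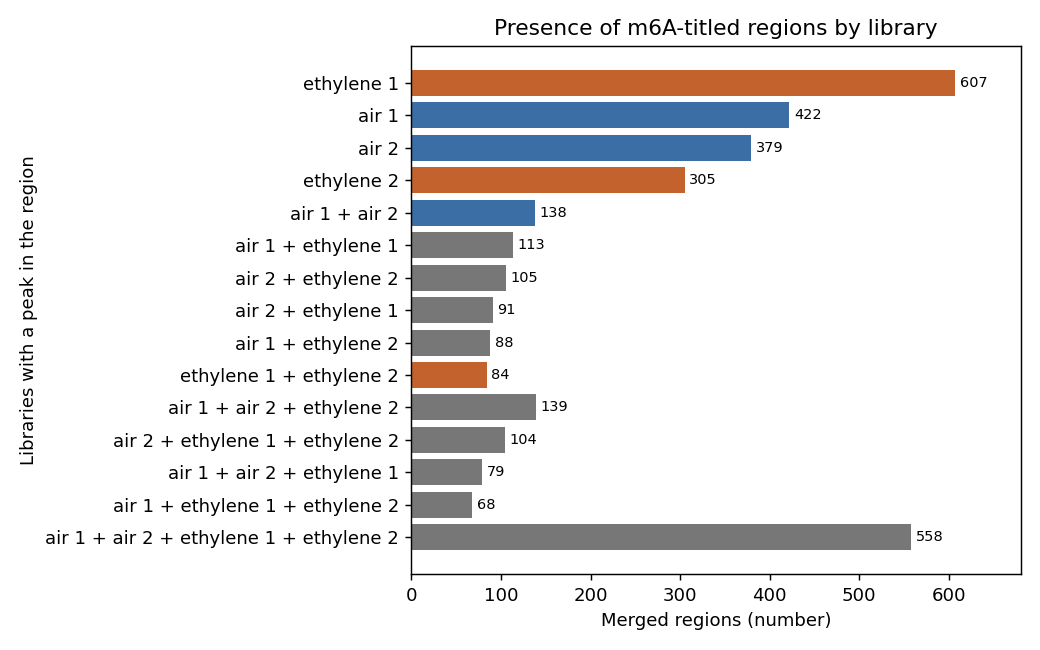
Number of merged regions (x axis) with a peak in exactly the libraries named on the y axis, blue for air lists alone, orange for ethylene lists alone and grey for lists of both treatments. The longest bars are the 607 regions of ethylene library 1 alone and the 558 regions of all 4 libraries.

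Regions in more lists were wider and higher in the order of scores. The median width was 243 bp for regions of 1 list, 276 bp for 2, 280 bp for 3 and 305.5 bp for 4. A region merged from more peaks can only be as wide or wider, which favours this order. The median of the mean score percentile within the lists was 27.3, 36.6, 48.6 and 71.0 for 1, 2, 3 and 4 lists. Of regions in 1 list, 83.8% scored under 100, and of those in all 4 lists 4.84% scored under 100 in every list. The plus strand held 46.9%, 45.4%, 50.8% and 46.8% of regions in 1, 2, 3 and 4 lists. The regions in both air lists and no ethylene list had a median width of 283.5 bp and those in both ethylene lists and no air list 223 bp.

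Recurrence followed the score in every list. In the lowest quartile of scores, 45.0 to 59.9% of the peaks of a list were in no other list and 7.29 to 10.3% in all 4. In the highest quartile, 4.41 to 7.51% were in no other list and 70.0 to 76.3% in all 4. Peaks of the highest quartile were found in the other list of the same treatment in 85.6% of cases for air library 1, 87.0% for air library 2, 82.4% for ethylene library 1 and 85.4% for ethylene library 2. For air library 1 the corresponding shares in ethylene libraries 1 and 2 were 80.6% and 85.8%, and for ethylene library 2 the shares in air libraries 1 and 2 were 88.2% and 89.5%. In this quartile, peaks of ethylene library 2 were thus found more often in each air list than in the other ethylene list. Ethylene library 1 had the largest share of peaks in no other list in each of the 4 quartiles.

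**Figure D4:**
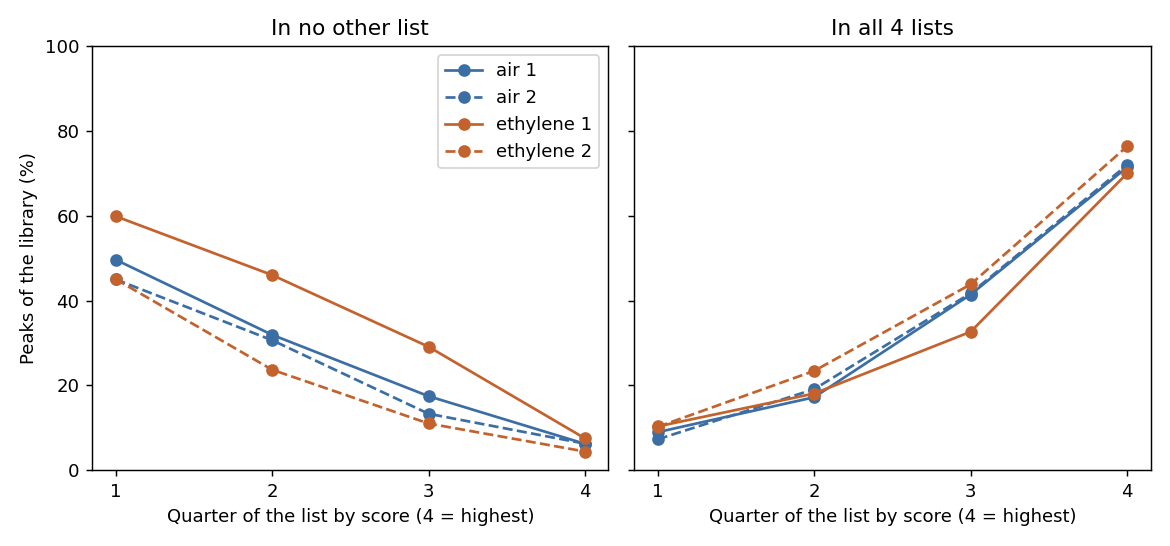
Share of the peaks of each library (y axis, %) found in no other list (left) and in all 4 lists (right), by quartile of score within the list (x axis, 4 is the highest), blue for air and orange for ethylene, solid for library 1 and dashed for library 2. In the highest quartile 70.0 to 76.3% of peaks were in all 4 lists, against 7.29 to 10.3% in the lowest.

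The order of scores was compared over the 558 regions present in all 4 lists, each ranked within its library from 1 for the lowest score. The score order of 2 libraries was related in every pair, with Spearman's rho over the 558 regions of 0.73 for the air pair, 0.69 for the ethylene pair and 0.64 to 0.72 for the mixed pairs. These are correlations across regions, which are not independent replicates. The median difference in rank between the air libraries was 66.5 places, between the ethylene libraries 69 places, and between libraries of different treatments 64 to 73 places. Libraries of a treatment were thus about as far apart in order as libraries of different treatments.

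Both ethylene libraries ranked a region above both air libraries in 138 of the 558 regions (24.7%), and both air libraries ranked it above both ethylene libraries in 90 (16.1%). The 4 libraries can be regrouped in 6 ways, and 1 of these puts both libraries of a given treatment on top. Without a treatment difference or ties, each direction would therefore be reached in about 1 of 6 regions. No excess over this share was tested. Tied scores entered the first count, since 28 regions scored 3100 or more in all 4 lists and all 28 were counted in the first group. Fewer of the 558 regions reached 3100 in ethylene library 1 (33) and ethylene library 2 (60) than in either air library (73 each), so the tied ranks lay higher after ethylene. With scores over 3100 set to 3100 and ties given their highest rank, the counts were 104 (18.6%) and 91 (16.3%). With treatment means also over 10% of the ranks apart, they were 83 (14.9%) and 84 (15.1%), and with that distance but average ranks for ties 82 (14.7%) and 78 (14.0%). Single regions were not tested, since an exact permutation test of 2 libraries against 2 cannot give a p below 0.333. The share on the plus strand was 49.3% among the 138 and 43.3% among the 90, against 46.8% of all 558, and median widths were 314.5, 313.5 and 305.5 bp.

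**Figure D5:**
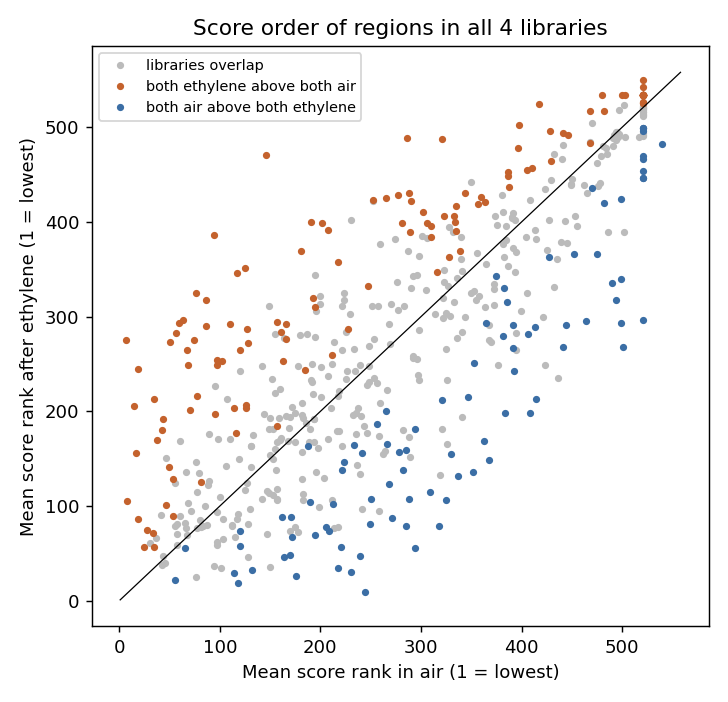
Mean score rank of each of the 558 regions of all 4 libraries in air (x axis, 1 is the lowest score) and after ethylene (y axis), orange where both ethylene libraries rank above both air libraries, blue for the reverse and grey where the libraries overlap. The 138 orange and 90 blue points lie on either side of the diagonal, and the cluster at the top right includes the 28 regions that scored 3100 or more in every list.

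The 5 named regions that ranked higher after ethylene had mean ranks 234 to 324.5 places above those in air. The largest shift was at Peaxi162Scf00227 752145 to 752699 (plus, 555 bp). Its scores were 176 and 92.7 in air and 1458 and 1331 after ethylene, and its ranks among the 558 regions were 197 and 95 in air against 492 and 449 after ethylene. All 4 peaks had the same bounds, so its width did not move with its rank. At Peaxi162Scf00394 85436 to 85589 (minus, 154 bp) the ranks were 173 and 15 in air and 463 and 310 after ethylene. At Peaxi162Scf00538 183016 to 183301 (minus, 286 bp) they were 3 and 11 in air and 330 and 220 after ethylene, so that it was near the bottom of both air orders. Peaxi162Scf00546 32756 to 33434 (minus, 679 bp) had ranks of 146 and 7 in air against 159 and 491 after ethylene, with the nearest libraries 13 places apart. Peaxi162Scf00020 773002 to 773175 (plus, 174 bp) had ranks of 42 and 84 in air against 156 and 438 after ethylene. Its difference of 234 places was tied with that of Peaxi162Scf00548 281816 to 282113 (minus, 298 bp), and the higher lowest score decided between them. The ethylene libraries differed from each other by more than 200 places at Peaxi162Scf00546 and Peaxi162Scf00020.

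The 5 named regions that ranked higher in air had ethylene minus air differences in mean rank of -238.5 to -224 places. Peaxi162Scf00791 167754 to 168060 (minus, 307 bp) had ranks of 249 and 339 in air and 80 and 31 after ethylene, with scores of 276 and 635 against 35.8 and 27.8. Peaxi162Scf00406 162677 to 163025 (plus, 349 bp) had ranks of 411 and 225 in air and 26 and 133 after ethylene. Peaxi162Scf00244 457715 to 458000 (minus, 286 bp) had ranks of 206 and 282 in air and 11 and 7 after ethylene, near the bottom of both ethylene orders. Peaxi162Scf00044 1218768 to 1219195 (minus, 428 bp) had ranks of 521 and 480 in air and 146 and 390 after ethylene. Peaxi162Scf00294 363447 to 363451 (minus) was an interval of 5 bp with the same bounds in all 4 lists, and it scored 3100 in both air libraries against 578 and 132 after ethylene.

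The regions of 1 treatment that scored highest were given by their values, since their presence in that treatment chose them. In both air lists and no ethylene list they were Peaxi162Scf00016 1892827 to 1892904 (plus, 78 bp, scores 3100 and 3100), Peaxi162Scf00131 1311417 to 1311544 (plus, 128 bp, 1485 and 3100) and Peaxi162Scf00197 73048 to 73104 (plus, 57 bp, 1078 and 1033). Peaxi162Scf00858 327619 to 327753 (plus, 135 bp, 1323 and 380) and Peaxi162Scf00001 521213 to 521623 (plus, 411 bp, 380 and 559) followed. All 5 lay on the plus strand, which held 63 of the 138 air-specific regions. In both ethylene lists and no air list they were Peaxi162Scf00131 1309869 to 1309994 (plus, 126 bp, scores 1955 and 3184), Peaxi162Scf00327 835462 to 835689 (minus, 228 bp, 1247 and 819) and Peaxi162Scf00419 276028 to 276885 (plus, 858 bp, 1306 and 604). Peaxi162Scf00344 1999056 to 1999162 (plus, 107 bp, 1691 and 205) and Peaxi162Scf00863 8834 to 8931 (plus, 98 bp, 308 and 221) followed. Of the 138 air-specific regions, 78 (56.5%) scored under 100 in both air lists. Of the 84 ethylene-specific regions, 47 (56.0%) scored under 100 in both ethylene lists.

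Air-specific and ethylene-specific regions lay side by side in 2 places, which were the only such pairs within 20 kb on the same strand. On Peaxi162Scf00131 the leading ethylene-specific region, 1309869 to 1309994, ended 1422 bp before the air-specific region 1311417 to 1311544 on the plus strand. On Peaxi162Scf00344 the ethylene-specific region 1999056 to 1999162 ended 107 bp before an air-specific region at 1999270 to 1999386 (plus, 117 bp, scores 199 and 179). These pairs were singled out after their values were seen. A region of any ethylene list lay within 1 kb on the same strand of 11 of the 138 air-specific regions (7.97%), and a region of any air list lay as near to 10 of the 84 ethylene-specific regions (11.9%). Of all 3280 merged regions, 318 (9.70%) had another region as near on the same strand, a share between those 2. Of the 558 regions of all 4 lists, 31 (5.56%) did. The last 2 shares count any other region, not only those of the other treatment. Within 5 kb the shares were 21.0% for air-specific regions, 17.9% for ethylene-specific regions and 20.1% for regions of all 4 lists. The order of these 3 sets at 1 kb did not hold there, and no difference between the sets was tested. No annotation was used to place these regions in transcripts.

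Overlap with the m1A lists was alike in all 4 lists. Peaks that overlapped a peak of any m1A air list made up 40.7% and 37.7% of the air lists and 42.2% and 39.97% of the ethylene lists. For the m1A ethylene lists, which cover less sequence, the shares were 19.3% and 18.9% in air and 20.7% and 19.6% after ethylene.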

How the data were processed

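Peak lists of 4 m6A-titled libraries (2 air, 2 ethylene) were used, with 6 m1A lists for comparison. The submitters' processing notes list MACS 1.4.2, STAR 2.5.1b, cutadapt 1.9.3 and CASAVA 1.4, with no role or setting. The same notes name human and mouse builds, whereas the lists use scaffolds prefixed Peaxi162. The values deposited are peak scores from the authors' caller, made for each library separately, and the sources used here do not give their scale. The lowest scores, 13.0 to 13.1, lie near −10 times log10 of 0.05, which is 13.0. Scores served to rank peaks within a list. Shares under a score of 100, median scores and a minimum at the pooled median of 78.2 set lists side by side and assume an equal scale, which was not established. Of 6353 scores, 271 were exactly 3100, so that order near the top rests on ties. Without counts, depth is unknown.

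Starts were made 1-based, and width is end minus start of the deposited file. Peaks were merged with 1 bp or more shared on either strand. One value per library was compared by exact two-sided permutation over libraries. A region of all 4 lists was called separated where both libraries of 1 treatment lay beyond both of the other. Named regions are the 5 leading ones of each set: identical bounds and high score, largest rank difference or width ratio in each direction, and presence in 1 treatment by score percentile. Stretches of 10 kb with the most regions were named likewise. Members, lists and tests were chosen with earlier results of these data known. Alternatives were other score minimums, overlap rules, list lengths, tie rules and leaving out each library. Merging and ranking were tested on simulated data whose scores had no noise and no ties. That check does not cover regions called separated through noise or ties. Python 3.11.15, numpy 2.4.6, pandas 2.3.3 and scipy 1.17.1 were used.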

Additional observations from a re-analysis of the deposited data

How the results depend on the processing

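With 2 libraries in each treatment no comparison between treatments could pass the test, so stability means direction only. With peaks scored 100 or more, or at or above the pooled median, the strand difference turned to 1.04 and 1.26 percentage points and the gap difference to -21400 and -35028 bp. With equal list lengths the gap difference was -1353 bp, and with scores of 100 or more the identical-edge difference was -0.158 points. The same score minimums left 72 and 79 air-specific, 34 and 36 ethylene-specific and 278 and 311 shared regions, as fewer peaks entered. Of those 278 and 311 shared regions, score order separated 81 and 88 towards ethylene and 37 and 42 towards air. Width separated 0 and 1 of them towards ethylene and 10 and 12 towards air. Ties kept their average rank, and the 28 regions scored 3100 or more in all 4 lists stayed in these smaller sets. The tie rule was not varied at these minimums, so no lean towards ethylene is read from these counts. With means over 10% of the ranks apart, 82 regions ranked above in ethylene, a setting chosen with the tie rule after the data were seen. Merging on the same strand or with 50% of the shorter peak shared left every count as it was.

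Leaving out each library gave ranges of -20 to -7 bp for width, -0.541 to 0.181 points for strand, -9697 to 21506 bp for the gap, -1.04 to 0.557 points for near neighbours and -1.65 to 3.48 points for identical edges. Counts then compare a single list with 2, and ran from 216 to 560 for air-specific, 152 to 691 for ethylene-specific and 626 to 697 for shared regions. Of the 626 to 697 shared regions, score order separated 239 to 270 towards ethylene and 175 to 216 towards air. Width separated 12 to 35 of them towards ethylene and 33 to 92 towards air. A single list against 2 separates more easily than 2 against 2, also without a treatment difference. These counts therefore cannot be set beside the 138 and 90 of 558 regions found with all 4 libraries. The replicate block was applied to peak width, strand and spacing only. It left the width difference at -13.5 bp (exact permutation p = 0.5, the smallest possible), so it could not have made any of these differences pass. Same-numbered libraries did not deviate together across regions (correlation 0.0265 for presence, -0.0362 for score rank). With 2 replicate numbers this cannot show whether same-numbered libraries share plants or a batch.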

Other observations

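The regions lay on 869 scaffolds, of which 442 had a peak in all 4 lists, 24 in both air lists and no ethylene list, and 23 in both ethylene lists and no air list. Peaxi162Scf00003 held the most regions, 44, with 23 and 21 peaks in air and 21 and 16 after ethylene. Peaxi162Scf00047 held 39 regions, with 17 and 20 peaks in air and 18 and 19 after ethylene. A single peak stood on 44.6 to 49.3% of the scaffolds of a list.

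The densest stretch of 10 kb on 1 strand was Peaxi162Scf00041 1443337 to 1447892 (plus), with 6 regions of 67 to 278 bp and 3 peaks in each list. Peaxi162Scf00652 155170 to 161790 (minus) held 5 regions, 3 of them in all 4 lists, with 4 and 4 peaks in air and 5 and 4 after ethylene. Peaxi162Scf00011 12137 to 17545 (minus), Peaxi162Scf00061 2183004 to 2189045 (plus) and Peaxi162Scf00038 2029039 to 2037365 (minus) each held 5 regions, 1 of them in all 4 lists. Of the stretches, 2440 held a single region and 327 held 2.

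Peak numbers skip in every list, and the lists hold 43.5% and 43.3% of the numbers up to the highest in air and 45.4% and 40.9% after ethylene. Score and width were weakly related across the peaks of a list, with Spearman's rho of 0.11 to 0.15.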
